A study of Mus musculus with 4 samples.

Results

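Serpins are a family of protease inhibitors with a shared fold, and this section follows the Serpin genes in ureter tumors and in normal ureter of mice. Members were the probe sets that the annotation of the array assigns to a single gene whose symbol consists of Serpin, a clade letter from a to i, a number and any further letters. This rule gave 53 probe sets of 39 genes, among 34945 probe sets of 18193 genes with a single gene symbol. The clade letters divide the family by sequence, and the 39 genes comprised 13 of clade A, 18 of clade B, 2 each of clades F and I, and 1 each of clades C, D, G and H. RNA was measured on Affymetrix mouse expression arrays, with 2 arrays of ureter tumor, described as urothelial carcinoma, and 2 arrays of normal ureter. All 4 samples are labelled as ureter epithelium of C57Bl/6 mice aged 6 to 8 weeks. The labels describe R26rtTA;teto-Cre;Ncstnf/f mice, in which doxycycline, given for 1 week from 3 weeks of age, turns on Cre recombinase and deletes floxed Ncstn, a subunit of gamma-secretase in the Notch pathway. Here the Rosa26 locus drives the transactivator, so recombination is not limited to urothelium by its promoter. That text stands on the tumor and the normal samples alike, and the genotype of each sample, the number of animals behind it and their sex are not stated in these sources. The study addressed Notch signaling in urothelial cancer.

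An inhibitory serpin presents an exposed loop to its target protease. The protease cuts the loop, stays bound to it and is trapped as the serpin changes shape, so that inhibitor and protease are both used up. Some members have lost this activity and serve as hormone carriers, chaperones or secreted signals. Clade A holds secreted proteins of blood plasma such as the alpha-1-antitrypsins, clade B holds mostly intracellular inhibitors that protect leukocytes and epithelial cells from their own or neighbouring proteases, and the other clades include the inhibitors of coagulation, fibrinolysis and complement. In mice, clades A and B have expanded into tandem arrays of paralogs.

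The deposited values were MAS5 signals, linear intensities scaled so that each array had the same trimmed mean of 500. Median signals of all probe sets were 85.0 and 94.2 on the tumor arrays and 107 and 103 on the normal arrays. With 4 arrays in all, precision is limited. Differences are given as tumor minus normal of log2(signal + 16), which understates changes of dim genes. Each gene was read from its brightest probe set, and the 13046 genes with a mean on that scale corresponding to a signal of at least 54.65 were tested with limma, with Benjamini-Hochberg adjustment over all of them and a threshold of 0.05. Of the 39 Serpin genes 23 passed this filter. The tumor arrays differed from each other far more than the normal arrays did, with Pearson's r across the tested genes of 0.786 between the tumor arrays and 0.976 between the normal arrays. Markers of umbrella cells, the surface layer of urothelium, had summed signals of 5216 and 6326 on the tumor arrays and 40499 and 68374 on the normal arrays. Krt18, the brightest of them, had 3099 and 5390 on the tumor arrays and 13581 and 20882 on the normal arrays. The normal arrays also carried fat cell and kidney markers, with sums of 290092 and 304610 and of 26835 and 57385.

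Promoter sequences are shown for 7 members on which the results turn, as 250 bases before to 50 bases after an annotated start, from RefSeq on GRCm38.p6. The table matched 34 of the 39 genes with 40 promoters. Capitals mark matches to any of 6 motifs, namely the AP-1 site TGANTCA, the STAT site TTCNNNGAA, the heat shock element GAANNTTC, the interferon response element, the HNF1 motif GTTAAT and the TATA box TATAAA. The TATA box was searched on the gene's strand and the others on both strands. The STAT and heat shock motifs can overlap each other. The first sequences belong to Serpinb6b (chr13:32965011-32965310, plus strand) and Serpinb9 (chr13:33004291-33004590, plus strand), clade B neighbours that were higher in the tumors. Serpinb6b had no match in this window, and the capitals in Serpinb9 mark the interferon response element on the minus strand, 46 bases before the start.
Serpinb6b: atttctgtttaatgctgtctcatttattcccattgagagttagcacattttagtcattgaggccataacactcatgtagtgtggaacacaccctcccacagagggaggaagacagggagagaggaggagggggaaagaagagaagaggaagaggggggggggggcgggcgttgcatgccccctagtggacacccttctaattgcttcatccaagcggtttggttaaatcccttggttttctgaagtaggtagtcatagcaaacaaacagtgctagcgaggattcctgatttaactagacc
Serpinb9: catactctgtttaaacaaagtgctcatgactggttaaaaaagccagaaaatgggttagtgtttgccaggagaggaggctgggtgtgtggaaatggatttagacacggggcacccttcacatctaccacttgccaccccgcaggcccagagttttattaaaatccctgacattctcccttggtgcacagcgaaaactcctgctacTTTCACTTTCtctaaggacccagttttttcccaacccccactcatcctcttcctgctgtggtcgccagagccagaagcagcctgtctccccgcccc

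Serpinb5 (chr1:106860925-106861224, plus strand), Serpinb11 (chr1:107362064-107362363, plus strand), Serpinb2 (chr1:107511173-107511472, plus strand, the first of its 2 annotated starts) and Serpinb8 (chr1:107589756-107590055, plus strand) lie in the other clade B array and were high on only 1 tumor array. All 4 carried the AP-1 letters in capitals, with 2 matches each in Serpinb11 and Serpinb8. The remaining capitals mark a heat shock element in Serpinb5, an HNF1 motif in Serpinb8 as its first match, and a TATA box and a STAT site in Serpinb2.
Serpinb5: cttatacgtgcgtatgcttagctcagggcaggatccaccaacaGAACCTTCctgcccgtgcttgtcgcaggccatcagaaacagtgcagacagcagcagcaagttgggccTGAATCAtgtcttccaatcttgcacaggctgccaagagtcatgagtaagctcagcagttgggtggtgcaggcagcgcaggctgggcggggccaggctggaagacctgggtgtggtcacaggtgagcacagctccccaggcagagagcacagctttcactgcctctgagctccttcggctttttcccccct
Serpinb11: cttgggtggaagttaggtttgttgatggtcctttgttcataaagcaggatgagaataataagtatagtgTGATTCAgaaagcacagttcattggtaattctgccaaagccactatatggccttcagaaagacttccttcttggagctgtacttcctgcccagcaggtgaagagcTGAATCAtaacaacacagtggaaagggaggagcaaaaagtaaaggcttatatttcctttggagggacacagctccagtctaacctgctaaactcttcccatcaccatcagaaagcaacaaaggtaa
Serpinb2: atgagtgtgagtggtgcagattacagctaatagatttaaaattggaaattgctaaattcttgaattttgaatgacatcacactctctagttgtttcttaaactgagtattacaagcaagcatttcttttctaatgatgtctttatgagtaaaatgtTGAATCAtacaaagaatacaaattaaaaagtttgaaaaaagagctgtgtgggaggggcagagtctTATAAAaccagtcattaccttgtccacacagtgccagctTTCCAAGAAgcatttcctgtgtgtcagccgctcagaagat
Serpinb8: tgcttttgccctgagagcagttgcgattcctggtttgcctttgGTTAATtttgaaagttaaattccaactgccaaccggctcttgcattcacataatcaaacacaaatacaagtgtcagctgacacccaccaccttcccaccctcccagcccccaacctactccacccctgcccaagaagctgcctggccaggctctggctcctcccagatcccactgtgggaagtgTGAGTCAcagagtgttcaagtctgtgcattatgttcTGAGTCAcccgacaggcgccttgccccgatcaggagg

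Serpina1c (chr12:103904901-103905200, minus strand), an alpha-1-antitrypsin gene, was lower in the tumors, and its capitals mark an AP-1 site and, 27 bases before the start, an HNF1 motif, the motif of a liver and kidney transcription factor.
Serpina1c: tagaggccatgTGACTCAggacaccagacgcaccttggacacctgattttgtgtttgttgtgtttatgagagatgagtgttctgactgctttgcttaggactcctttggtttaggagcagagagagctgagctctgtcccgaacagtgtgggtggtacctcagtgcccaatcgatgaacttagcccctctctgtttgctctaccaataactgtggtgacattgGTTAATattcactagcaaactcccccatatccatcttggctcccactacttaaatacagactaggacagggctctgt

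Across the family, few genes passed the test and many differed between the tumors themselves. Serpinb6b and Serpinb9 rose and Serpina1c fell, 3 of 23 tested genes, while 1.43% of all tested genes passed, 0.491% higher and 0.943% lower. An unadjusted p under 0.05 was reached by 7 of the 23 and by 21.5% of all tested genes. For 8 of the 23 genes both tumors exceeded both normal arrays and for 2 both were lower, where 29.4% and 27.7% of all tested genes did so. Groups were thus separate for 10 of 23, beside 57.1% of all tested genes. The tumor arrays lay at least 4-fold apart on the log2(signal + 16) scale for 11 of the 23, 8 of them higher on tumor 1 and 3 higher on tumor 2, against 8.52% of all tested genes. Since a gene can pass the filter through 1 high array, the same count was taken over all 39 measured genes, where it was 11, or 28.2%, beside 7.43% of all measured genes. The normal arrays lay 4-fold apart for 0 of the 39 Serpin genes, and for 1.14% of all measured and 0.376% of all tested genes. In 10 of the 23 tested genes 1 tumor array lay above and 1 below the normal mean, against 30.4% of all tested genes. The median difference of the 23 genes was 0.48, with 1.21 on tumor 1 and 0.02 on tumor 2, beside 0.03 over all tested genes.

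The share of genes past the test depended on the settings, and with it the background for the Serpin calls. It was 1.27% of all tested genes with a pseudocount of 1, 1.91% with 64, 1.41% under quantile normalization and 0.268% under median centring. A filter at the 60th percentile gave 2.31%, no filter 0.77%, averaged probe sets 0.88% and separate probe sets 1.56%. It was 0.0153% without the intensity trend of the variance, 1.44% with a robust trend, 1.45% with the arithmetic mean signal and 0.0% with the replicate block. Without tumor 1 or tumor 2 it was 32.9% and 42.2%, and without either normal array 0.0%.

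**Figure D1:**
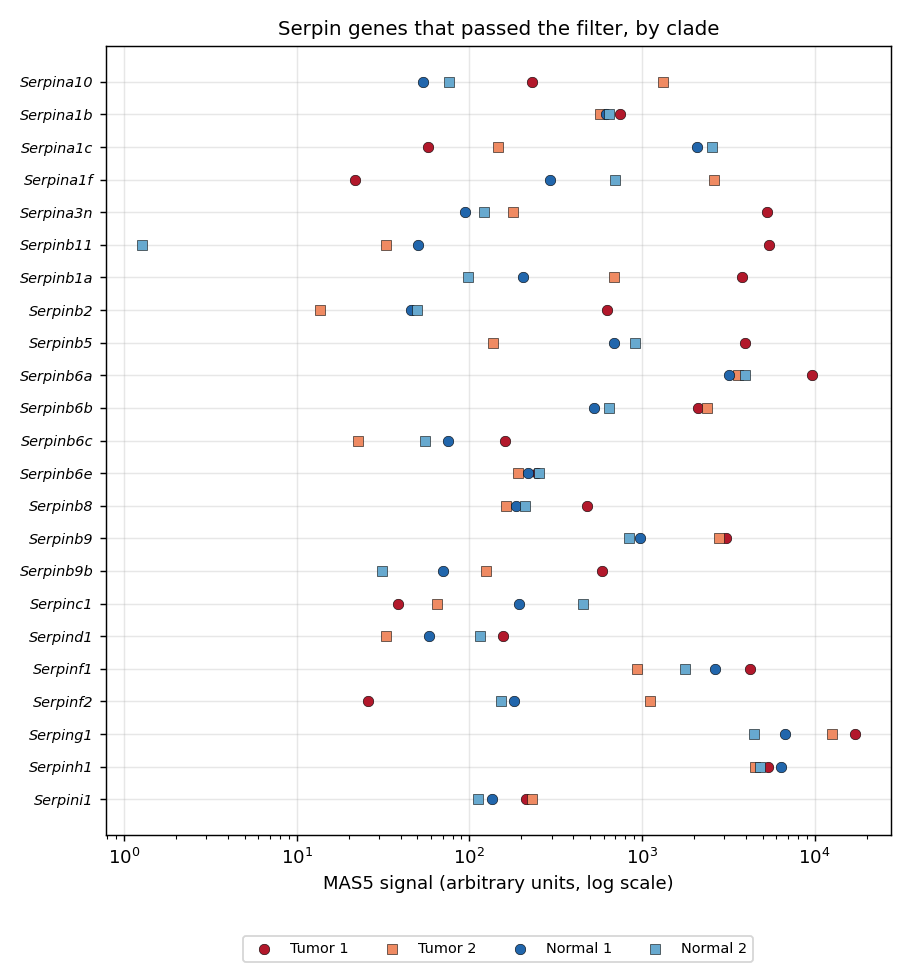
MAS5 signal on a log scale for the 23 Serpin genes that passed the filter, in clade order, with 1 point per array (tumor 1 and 2, normal 1 and 2). The points of Serpinb6b and Serpinb9 separate by group, whereas for Serpinb5, Serpinb11, Serpina1f and Serpinf2 the tumor points lie far apart.

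**Figure D2:**
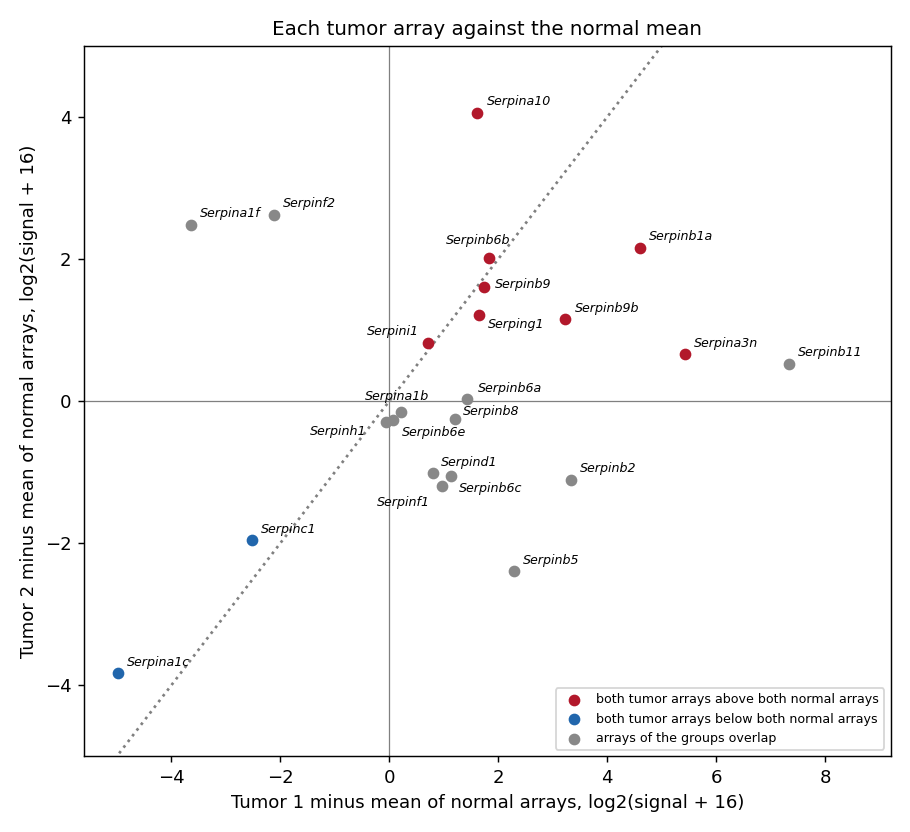
Difference of tumor 1 (x axis) and tumor 2 (y axis) from the mean of the normal arrays, in log2(signal + 16), for the 23 tested Serpin genes, with equal differences along the dotted line. Red points mark the 8 genes with both tumor arrays above both normal arrays, blue points the 2 with both below, and grey points the 13 whose arrays overlap.

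The clade B array on chromosome 13 held 4 of the 8 tested genes whose signals were higher on both tumor arrays, among them both Serpin genes that rose. These were 4 of its 7 tested genes, beside 29.4% of all tested genes. Serpinb6b, which in mice inhibits the T cell and NK cell protease granzyme A, had signals of 2108 and 2393 on the tumor arrays and 526 and 641 on the normal arrays. The groups did not overlap, and each pair of arrays was close. On the log2 scale it rose by 1.92 (SE 0.21, limma adjusted p = 0.0487, n = 2 each). Serpinb9, the inhibitor of granzyme B, had 3054 and 2800 on the tumor arrays against 972 and 842 on the normal arrays. It rose by 1.67 (SE 0.18, limma adjusted p = 0.0498, n = 2 each), 3.19-fold on that scale. Its other probe set, with 1038 and 1290 on the tumor arrays and 310 and 387 on the normal arrays, gave a like difference of 1.70. That probe set did not pass when every probe set was tested (limma adjusted p = 0.0667). Both calls ended, with the differences between 1.57 and 2.06, when either normal array was left out, which left 0 genes past the test in the whole table, and Serpinb9 missed the threshold at adjusted p = 0.0508 when the arithmetic mean signal was used for both the filter and the choice of probe set.

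Their neighbours pointed the same way but with a wider gap between the tumors on the probe sets read. Serpinb1a, an inhibitor of the neutrophil proteases elastase, cathepsin G and proteinase 3, had signals of 3807 and 690 on the tumor arrays and 203 and 97.6 on the normal arrays. Its difference was 3.38 (SE 0.94, limma adjusted p = 0.167, n = 2 each), and its second probe set gave 2.87. The tumors were closer on that second probe set, with 633.7 and 302.5, against 54.1 and 39.3 on the normal arrays. Serpinb9b, a mouse paralog of Serpinb9, had 583 and 125 on the tumor arrays, against 70.0 and 31.1 on the normal arrays, a difference of 2.19 (SE 0.85, limma adjusted p = 0.25). In chromosome order the first 5 measured members were Serpinb1a, Serpinb6b, Serpinb9, Serpinb9b and Serpinb1b, and all 5 had both tumor arrays above both normal arrays, a grouping made after the values were seen. Serpinb1b did so at a signal below the filter, with 76.2 and 41.5 on the tumor arrays and 30.04 and 32.6 on the normal arrays. Of the other 6 members of the array, 0 did so, which makes 5 of 11, beside 25.5% of all measured genes.

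At the far end of the same array lie the Serpinb6 paralogs. Serpinb6a, an inhibitor of cathepsin G and other serine proteases and the brightest clade B gene, had 9594 and 3607 on the tumor arrays and 3182 and 3957 on the normal arrays. Tumor 1 stood above the rest, tumor 2 lay between the normal arrays, and the difference of 0.73 did not pass (limma adjusted p = 0.485). Serpinb6c had 161 and 22.6 on the tumor arrays and 74.7 and 55.0 on the normal arrays. For Serpinb6e the signals were 246 and 192 on the tumor arrays against 217 and 254 on the normal arrays, with overlapping groups. Its difference of -0.10 turned to 0.09 when each array was centred on its median. Serpinb6c and Serpinb6e were read from probe sets with probes shared between similar transcripts, so values of these single paralogs are uncertain. Serpinb9c, Serpinb9d and Serpinb9g stayed below the filter, with signals from 1.32 to 34.7 over all arrays.

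The clade B array on chromosome 1 differed between the tumors. Serpinb5, or maspin, a non-inhibitory member made by basal and myoepithelial cells, had signals of 3937 and 138 on the tumor arrays and 692 and 911 on the normal arrays. Tumor 1 lay above both normal arrays and tumor 2 below both. The resulting difference of -0.06 (SE 1.65, limma adjusted p = 0.99) averages 2.29 on tumor 1 and -2.40 on tumor 2, and all 4 probe sets of Serpinb5 showed the same order of arrays, with differences from -0.27 to 0.16. Centring on the median or a pseudocount of 64 turned its sign to 0.14 and 0.07. Serpinb11, which inhibits trypsin-like proteases in mice but not in humans, had 5435 and 32.9 on the tumor arrays, against 50.5 and 1.26 on the normal arrays. Its difference was 3.93 (SE 2.49, limma adjusted p = 0.428), the largest positive one among the 23 tested genes, and rested on tumor 1.

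Serpinb2, also called plasminogen activator inhibitor 2, gave 627 and 13.7 on the tumor arrays and 46.1 and 49.7 on the normal arrays. Again tumor 1 was above and tumor 2 below both normal arrays, with differences of 3.33 and -1.11 from the normal mean. Serpinb8, an inhibitor of furin, had 479 and 164 on the tumor arrays and 187 and 209 on the normal arrays. Of these 4 tested genes of the array 3 were at least 4-fold apart between the tumors, each higher on tumor 1, beside 8.52% of all tested genes. Serpinb11 and Serpinb2 passed the filter through their signal on tumor 1. Over the 7 measured members the count was 3, or 42.9%, beside 7.43% of all measured genes. Non-overlapping groups were seen for 0 of the 4, beside 57.1% of all tested genes. The remaining 3 members, Serpinb12, Serpinb3a and Serpinb7, stayed below the filter with signals from 1.02 to 21.6. Serpinb3a, related to the human squamous cell carcinoma antigens, had 3.14 and 11.8 on the tumor arrays and 2.62 and 1.08 on the normal arrays.

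**Figure D3:**
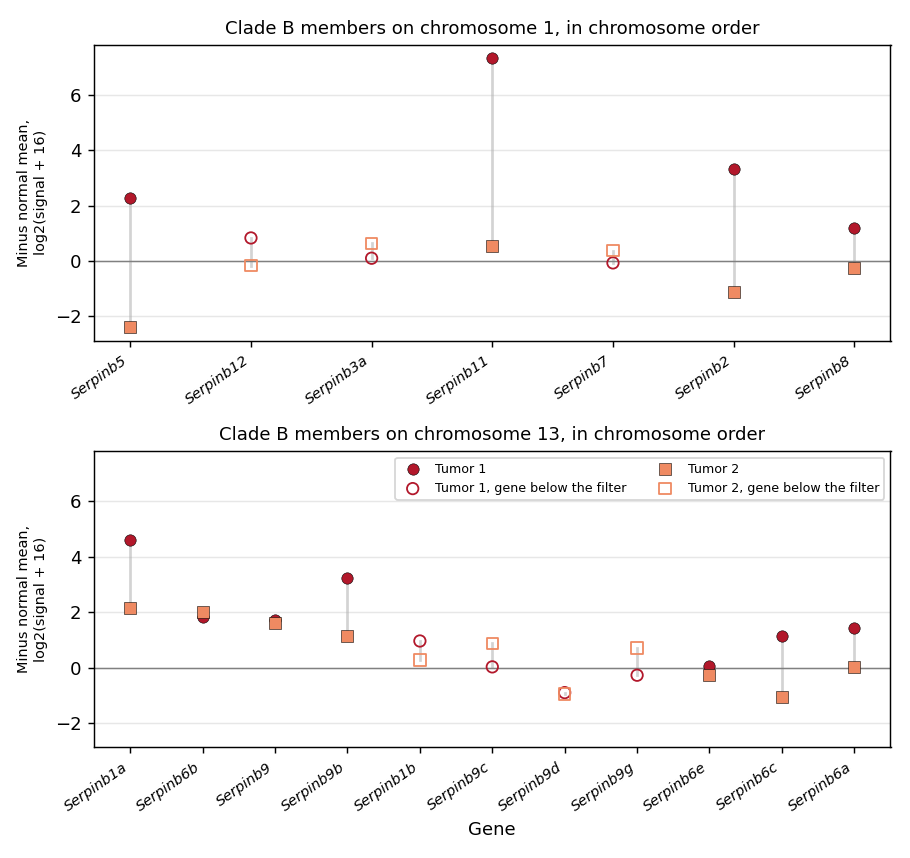
Difference of each tumor array from the normal mean, in log2(signal + 16), for the clade B members in their order along chromosome 1 (top) and chromosome 13 (bottom), with open symbols for genes below the filter. On chromosome 13 both tumor points of the first 4 genes lie above 0 by 1.15 to 4.60, and on chromosome 1 Serpinb5, Serpinb11, Serpinb2 and Serpinb8 are higher on tumor 1 than on tumor 2.

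In the promoter windows, the AP-1 letters were present in 6 of the 7 clade B genes on chromosome 1, all but Serpinb3a, and in 0 of the 10 with a promoter on chromosome 13. They stood in 7.81% of all 32851 promoters. These 6 genes include Serpinb12 and Serpinb7, which were below the filter, so the letters did not separate the genes that were high on tumor 1 from the rest of the array. The interferon response element stood in 2 of the 10 promoters on chromosome 13, those of Serpinb6a and Serpinb9, and in 3.44% of all. The other motifs stood in 8.30% (STAT), 7.86% (heat shock), 7.10% (HNF1 motif) and 8.32% (TATA box) of all promoters, and in 8, 5, 6 and 8 of the 40 Serpin promoters. A match shows letters only, and the comparison of the arrays was made after the matches were seen.

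Serpinb5, Serpinb11 and Serpinb2 were set beside markers of basal urothelium and squamous epithelium. The 17 measured markers summed to 86780 and 5652 on the tumor arrays and 27227 and 45150 on the normal arrays, and 12 of them were highest on tumor 1. Sprr1a, a gene of the squamous cornified envelope and the brightest of them, had 14948 and 2322 on the tumor arrays and 16692 and 28378 on the normal arrays. Krt5 and Krt6a were picked after their values were seen. Krt5, the keratin of basal cells, had 15780 and 628 on the tumor arrays and 3415 and 5518 on the normal arrays, the same order as Serpinb5. Krt6a, a keratin of activated and squamous epithelium, had 8342 and 76.2 on the tumor arrays and 81.4 and 47.4 on the normal arrays. Of 10 tested markers 0 passed in either direction. The part of epithelial composition in the Serpin values was not tested, and in tissue RNA fewer cells of a type and less RNA per cell cannot be told apart.

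Clade A, the plasma serpins, fell into unlike members. Serpina1c, one of the mouse alpha-1-antitrypsins, which inhibit neutrophil elastase, had signals of 57.5 and 146 on the tumor arrays and 2073 and 2545 on the normal arrays. The groups lay far apart, and on the log2 scale it fell by 4.41 (SE 0.46, by limma with adjusted p = 0.0475, n = 2 each). The call ended without either normal array, at differences of -4.55 and -4.26, and at a pseudocount of 1 (adjusted p = 0.0542). Serpina1b, its paralog, was read from probe sets with shared probes and had 742 and 567 on the tumor arrays, against 621 and 647 on the normal arrays. Its difference was 0.03 and its other probe set gave 0.37. A probe set assigned jointly to Serpina1c and its paralogs, and so no member by the rule, was dim at 38.6 and 43.1 on the tumor arrays and 33.5 and 25.7 on the normal arrays. A second such probe set, assigned to Serpina1d and Serpina1a, had 20.7 and 1408 on the tumor arrays and 324 and 472 on the normal arrays, so that tumor 1 was below and tumor 2 above both normal arrays. These paralogs are nearly identical, so which of them the fall belongs to is uncertain.

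Serpina1f, a further paralog, had signals of 21.6 and 2609 on the tumor arrays and 293 and 694 on the normal arrays, with tumor 1 below and tumor 2 above both normal arrays. It differed by -6.12 log2 units between tumor 1 and tumor 2. Serpina10, the protein Z-dependent inhibitor of coagulation factor X, had 231 and 1326 on the tumor arrays and 53.9 and 76.6 on the normal arrays. This gene was read from a probe set with shared probes. The groups did not overlap, and the difference was 2.84 (SE 0.91, limma adjusted p = 0.196, n = 2 each). Serpina3n, a mouse counterpart of alpha-1-antichymotrypsin that inhibits cathepsin G and granzyme B, went the other way between the tumors, with 5265 and 179 on the tumor arrays and 94.4 and 122 on the normal arrays. Its difference of 3.04 (SE 1.68, limma adjusted p = 0.375) was 5.42 on tumor 1 and 0.66 on tumor 2. The other 8 clade A genes did not pass the filter, among them Serpina12, the adipokine vaspin, Serpina6, the corticosteroid carrier, Serpina7, the thyroxine carrier, and Serpina5, the protein C inhibitor. Serpina11 reached 108 on tumor 1, and the remaining 7 lay between 1.11 and 76.8 on every array.

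Inhibitors of coagulation and fibrinolysis in other clades were mostly dim. Serpinc1, or antithrombin, which inhibits thrombin and factor Xa, had 38.5 and 64.8 on the tumor arrays and 193 and 454 on the normal arrays. Both tumors lay below both normal arrays, and the difference was -2.24 (SE 0.55, limma adjusted p = 0.142, n = 2 each). Serpind1, heparin cofactor II, had 157 and 33.0 on the tumor arrays and 58.3 and 116 on the normal arrays, and its difference of -0.10 turned to 0.04 under quantile normalization and 0.09 under median centring. Serpinf2, or alpha-2-antiplasmin, the main plasmin inhibitor, had 25.7 and 1105 on the tumor arrays and 181 and 152 on the normal arrays. Tumor 1 was below and tumor 2 above the normal arrays, by -2.12 and 2.62. Serpinf1, or PEDF, a non-inhibitory factor that restrains vessel growth, had 4247 and 936 on the tumor arrays and 2655 and 1779 on the normal arrays, with the tumors on either side of the normal arrays. Its difference of -0.12 became 0.08 under median centring. Its other probe set had 687 and 210 on the tumor arrays and 946 and 546 on the normal arrays, a difference of -0.88. Tumor 1 lay between the normal arrays there.

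Serping1, the C1 inhibitor that blocks complement proteases and plasma kallikrein, was the brightest member. Its signals were 17086 and 12675 on the tumor arrays and 6718 and 4453 on the normal arrays, without overlap. The difference of 1.43 (SE 0.31, n = 2 each) did not pass (limma adjusted p = 0.123, unadjusted p = 0.00927). Serpinh1, or HSP47, the collagen chaperone of the endoplasmic reticulum, was bright and close on all arrays, with 5330 and 4532 on the tumor arrays and 6379 and 4844 on the normal arrays. Its difference of -0.18 (SE 0.23, limma adjusted p = 0.697) was 0.02 under median centring. Serpini1, or neuroserpin, an inhibitor of tissue plasminogen activator, had 213 and 231 on the tumor arrays and 136 and 112 on the normal arrays, a difference of 0.77 (SE 0.30, limma adjusted p = 0.252). Serpini2 was below the filter, with 1.84 and 2.90 on the tumor arrays and 5.72 and 68.8 on the normal arrays.

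Sums of marker signals for kidney, hepatocytes and fat cells are given beside these genes. The 8 kidney markers summed to 1533 and 127250 on the tumor arrays and 26835 and 57385 on the normal arrays. They are proximal tubule genes except Umod of the loop of Henle. Umod had 1268 and 57258 on the tumor arrays and 4997 and 9982 on the normal arrays. All 8 were highest on tumor 2, as were Serpina1f, Serpinf2 and Serpina10. On tumor 1, however, Serpina10 had 231, above its 53.9 and 76.6 on the normal arrays, while the kidney sum was below both. Of other tested members, Serpinb6b and Serpini1 were also highest on tumor 2, with -0.182 and -0.105 log2 units between tumor 1 and tumor 2. The brightest of the 8 kidney markers, Kap, a kidney androgen-regulated gene, had 101 and 52269 on the tumor arrays and 16792 and 41745 on the normal arrays. Hepatocyte markers summed to 417 and 14283 on the tumor arrays and 6883 and 14419 on the normal arrays. Of these 10 markers, 6 had both tumor arrays below both normal arrays, like Serpina1c and Serpinc1, and Alb, the albumin gene, the one hepatocyte marker past the test, fell by 5.28 (limma adjusted p = 0.0487), with 63.0 and 59.4 on the tumor arrays against 1756 and 5082 on the normal arrays. Ttr, a transthyretin gene also active outside the liver, had 4.17 and 12990 on the tumor arrays and 3184 and 6341 on the normal arrays. All 8 measured fat cell markers were lower on both tumor arrays, with sums of 38906 and 6362 there against 290092 and 304610 on the normal arrays. Of these, 2 passed the test, Ucp1, which marks brown fat and fell by 10.06, and Pparg, a regulator of fat cell differentiation, which fell by 4.85 (limma adjusted p = 0.00863 and 0.0425). The brightest, Fabp4, had 25536 and 6072 on the tumor arrays and 105906 and 124150 on the normal arrays. The part of these tissues in the Serpin differences was not tested.

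**Figure D4:**
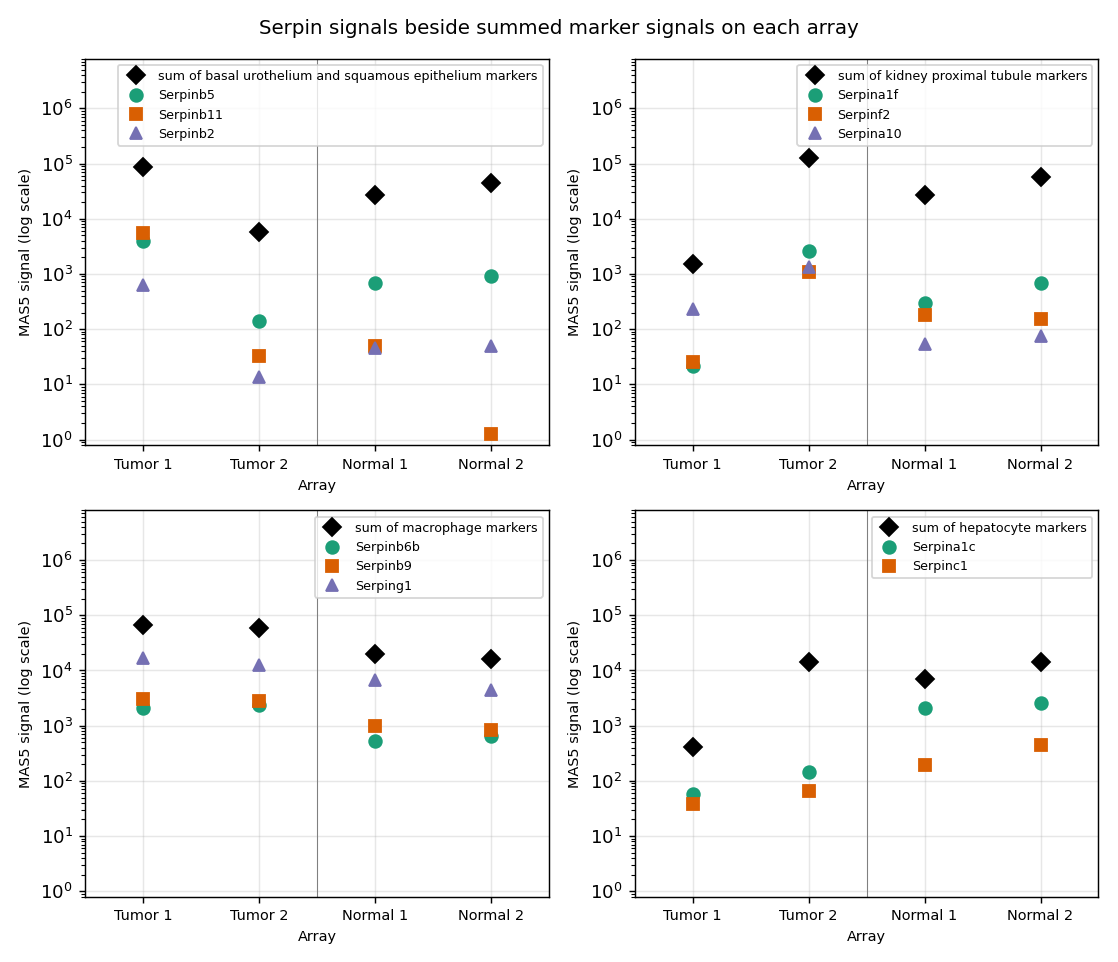
MAS5 signals on a log scale of selected Serpin genes beside the summed signal of a marker list (black diamonds) on each of the 4 arrays. Serpinb5 and the basal and squamous sum share their order over the arrays, Serpina1f and Serpinf2 peak on tumor 2 with the kidney sum, and Serpinb6b, Serpinb9 and Serping1 lie higher on both tumor arrays with the macrophage sum. Serpina1c and Serpinc1 lie lower on both tumor arrays, while the hepatocyte sum is low on tumor 1 alone. The kidney sum, labelled proximal tubule, also holds Umod of the loop of Henle.

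Proteases that these serpins act on, together with partner and related genes, were read from fixed lists. Granule serine proteases, which include targets of Serpinb1a, Serpinb6b and Serpinb9, summed to 125773 and 584 on the tumor arrays and 1276 and 1192 on the normal arrays. Of 16 measured genes 13 were highest on tumor 1, 11 were tested and 0 passed. The mast cell protease gene Mcpt2 had 52197 and 33.7 on the tumor arrays and 2.21 and 2.43 on the normal arrays. Mcpt1, a further mast cell protease gene, had 38867 and 28.7 on the tumor arrays and 24.9 and 13.8 on the normal arrays. Elane, the gene of neutrophil elastase, which Serpinb1a inhibits, was dim, with 62.6 and 28.9 on the tumor arrays and 76.2 and 105 on the normal arrays, a difference of -0.83 (limma adjusted p = 0.387). Both tumor arrays lay below both normal arrays there. Ctsg and Prtn3, the genes of the other named targets of Serpinb1a, were read after their values were seen. Ctsg was below the filter, with 57.7 and 42.4 on the tumor arrays and 1.28 and 5.84 on the normal arrays. Prtn3 had 253 and 113 on the tumor arrays and 163 and 175 on the normal arrays, with overlapping groups. Tpsab1, a mast cell tryptase gene, had 1807 and 33.0 on the tumor arrays and 55.2 and 52.9 on the normal arrays. Gzma and Gzmb, which encode the granzymes that Serpinb6b and Serpinb9 inhibit, were picked after their values were seen. Gzma had 15262 and 69.4 on the tumor arrays and 161 and 147 on the normal arrays. Gzmb had 4168 and 7.45 on the tumor arrays and 39.7 and 55.5 on the normal arrays. The granzyme signals differed between the tumors, while those of Serpinb6b and Serpinb9 differed by -0.18 and 0.13 log2 units between the same arrays.

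Macrophage markers, by contrast, were higher on both tumor arrays, with sums of 67286 and 59691 there and 19886 and 15905 on the normal arrays, and all 10 had both tumor arrays above both normal arrays. The brightest, Lyz2, a lysozyme gene, had 15286 and 21798 on the tumor arrays and 8476 and 6381 on the normal arrays. The complement list, which holds the proteases of the classical and lectin pathways and the C1q subunits, had a median difference of 1.73 over 7 tested genes, of which 1 rose and 0 fell. C1qb, a recognition subunit of the complement complex C1 and one of the macrophage markers, rose by 2.65 (SE 0.20, limma adjusted p = 0.0402, n = 2 each), with 7385 and 6049 on the tumor arrays and 1108 and 996 on the normal arrays. C1qc, Masp1 and C1qa had differences of 2.06, 1.73 and 1.98 with adjusted p-values from 0.0568 to 0.0828. The proteases of C1 that Serping1 inhibits overlapped between the groups, as read after their values were seen. C1ra had 2400 and 714 on the tumor arrays and 1042 and 747 on the normal arrays, a difference of 0.56 (limma adjusted p = 0.657). C1s1 had 7978 and 2554 on the tumor arrays and 3000 and 2270 on the normal arrays, a difference of 0.79 (limma adjusted p = 0.51). Among 10 lysosomal cysteine cathepsins, none of them named here as a target of a measured clade B member, 0 passed and the median difference was 0.88. Ctsc, which activates granule serine proteases, had a difference of 1.85 and Ctss, active in antigen processing, 2.74 (limma adjusted p = 0.063 and 0.0723). Ctsk and Ctsz, cathepsins of bone resorption and of macrophages, had differences of 1.83 and 0.88 (limma adjusted p = 0.0744 and 0.166).

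Plasma cell markers were also higher on both tumor arrays, with sums of 164667 and 130739 on the tumor arrays and 27141 and 26567 on the normal arrays. Of 8 tested, 2 rose and 0 fell, and 6 had both tumor arrays above both normal arrays. Igha, the immunoglobulin A heavy chain gene and the brightest, had 65803 and 69046 on the tumor arrays and 444 and 463 on the normal arrays, and it rose by 7.17 (limma adjusted p = 0.00863). Other immune lists were higher mainly on tumor 1. Neutrophil markers summed to 24481 and 1573 on the tumor arrays and 383.5 and 323.2 on the normal arrays. For T and NK cell markers the sums were 21291 and 738.6 on the tumor arrays and 935 and 877.6 on the normal arrays. For mast cell markers they were 111773 and 720.5, and 859.4 and 733. The part of these immune cells, macrophages and plasma cells included, in the values of Serpinb6b, Serpinb9, Serping1 and Serpinb1a was not tested.

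For coagulation, 1 of 15 tested genes rose and 0 fell, with a median difference of 0.58. F2r, the thrombin receptor PAR1, rose by 3.35 (SE 0.20, limma adjusted p = 0.0369, n = 2 each), with 13636 and 17058 on the tumor arrays against 1520 and 1448 on the normal arrays. F3, the tissue factor that starts coagulation, had a difference of 1.84, F2, the gene of prothrombin, -1.54 and the inhibitor Tfpi2 1.75 (limma adjusted p from 0.13 to 0.216). In the plasminogen list 0 of 8 tested genes passed, with a median of 0.16. Plau, the gene of urokinase, had 1687 and 7598 on the tumor arrays and 597 and 806 on the normal arrays, a difference of 2.34 (limma adjusted p = 0.207), and it was higher on tumor 2 whereas Serpinb2, which inhibits urokinase, was higher on tumor 1. Plgrkt, a plasminogen receptor gene, and Vtn, the gene of vitronectin, which binds plasminogen activator inhibitor, had differences of -0.54 and -2.32 (limma adjusted p = 0.269 and 0.366). Plaur, the urokinase receptor gene, had a difference of 0.70 (limma adjusted p = 0.387).

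Among membrane-bound serine proteases and their Kunitz inhibitors 1 of 8 tested genes rose and 0 fell. St14, the epithelial protease matriptase, rose by 1.72 (SE 0.18, limma adjusted p = 0.048, n = 2 each), with 2017 and 2231 on the tumor arrays and 613 and 658 on the normal arrays. Tmprss2, a further epithelial protease gene, had 3040 and 4197 on the tumor arrays and 9208 and 12365 on the normal arrays, a difference of -1.57 (limma adjusted p = 0.0922). Spint2, a Kunitz inhibitor gene, and Tmprss4 had differences of 0.56 and 2.58 (limma adjusted p = 0.213 and 0.374). Only 2 of 11 measured tissue kallikreins were tested and 0 passed; Klk1, which is made in kidney, had 202 and 26393 on the tumor arrays and 10979 and 14415 on the normal arrays. Klk8 had a difference of 0.07 (limma adjusted p = 0.942). Non-serpin protease inhibitors gave 0 of 16 tested genes past the test and a median of 0.01, with Slpi, an elastase inhibitor of mucosal surfaces, at 3.18 and Timp1, a metalloproteinase inhibitor, at 4.97 (limma adjusted p = 0.0721 and 0.0955). Itih4, an inter-alpha-inhibitor chain gene, and Timp4, a further metalloproteinase inhibitor, had -3.89 and -4.44 (limma adjusted p = 0.0908 and 0.0909). Of the 20 measured, 7 had both tumor arrays above both normal arrays and 8 had both below. The collagen genes and modifying enzymes that work with Serpinh1 had a median of 0.73 over 18 tested genes, of which 0 passed, and 12 of 19 measured had both tumor arrays above both normal arrays, where Serpinh1 itself did not. Crtap, part of the collagen prolyl hydroxylase complex, had a difference of 1.00 (limma adjusted p = 0.0933). P4hb, Col5a2 and Col1a1 had 0.73, 1.16 and 1.00 (limma adjusted p from 0.175 to 0.178). The calls of C1qb, F2r, St14, Igha, Ucp1, Pparg and Alb ended when either normal array was left out.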

How the data were processed

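Total RNA of 2 ureter tumor and 2 normal ureter samples was hybridised to 1 array each. Per the submitters' processing notes the deposited intensity values came from MAS5, whose version is not given in the sources. From the values, each array's mean after trimming 2% at each end was 500. Of 45101 probe sets, 64 controls were left out, 34945 had 1 gene symbol, 932 several and 9160 none here. The deposited intensity was transformed as log2(signal + 16). Both the filter (40th percentile) and the choice of probe set used the mean on that scale. Tumor and normal arrays were set against each other in limma 3.58.1 (R 4.3.3), its variance prior following intensity, on 2 residual degrees of freedom and 2.11 prior ones, two-sided. The smallest p of an exact permutation test of 2 against 2 arrays is 0.333. Replicates are labelled as biological with no animals named, so a p-value reflects only how far these arrays spread.

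The procedure was tested on simulated data, 13046 genes with 200 changed in each of 10 runs. Each gene had its own spread, the same for tumor and normal arrays. In the data the tumor arrays spread more, with 8.52% of tested genes 4-fold apart against 0.376% for the normal arrays. The simulation therefore does not show how the test behaves under such unequal spread. Estimates lay close to the changes put in, but most changes of 1 or 2 on the log2 scale were not called. By rule, genes past the test were named, and members among the 15 brightest or with a difference of at least 2. Target lists gave up to 4 genes each with the smallest p. Marker lists gave the brightest gene, except lists described without named genes. Outside the rule, signals were also given for Serpinb1b, Serpinb2, Serpinb3a, Serpinb6c, Serpind1, Serpinf2, Serpini1, Serpini2 and Umod. The genes said to be picked or read after their values were seen also lay outside it. Members, lists and rules were chosen with earlier results of these data known. Alternatives changed the pseudocount, scaling, filter, probe set rule, variance model, replicate block or left out 1 array. Gene order and promoters came from RefSeq tables of GRCm38.p6. Figures were drawn with matplotlib 3.10.9.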

Additional observations from a re-analysis of the deposited data

How the results depend on the processing

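The differences of Serpina1c, Serpinb6b and Serpinb9 kept their direction under all alternatives tried, but their adjusted p-values lay between 0.0475 and 0.0498 and were easily lost. Of the 2 Serpin genes called higher and 1 called lower, 0 and 0 were called with a pseudocount of 1, median centring, no filter, averaged probe sets, no intensity trend or the replicate block, and 0 and 1 under quantile normalization. With the arithmetic mean for the filter and the choice of probe set, an alternative added after the data were seen, 1 and 1 were called. A pseudocount of 64, a filter at the 60th percentile, every probe set and a robust trend left 2 and 1. Leaving out 1 array gave from 0 to 13 called higher and from 0 to 4 called lower, with 0 and 0 without either normal array, 7 and 4 without tumor 1 and 13 and 4 without tumor 2. An omitted array leaves its group with 1 array, assumed to vary like the other group. Unadjusted p was under 0.05 for 7 of the 23 genes, and for 9 under the block and 6 and 3 without normal replicate 1 or 2.

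Over all genes the 187 calls became 35 under median centring, 111 with the mean of probe sets, 357 with every probe set, 2 without the trend and 0 with the replicate block (2253 at an unadjusted p under 0.05), and from 0 to 5502 when 1 array was left out. Median centring moved the median of all tested genes to 0.22 and that of the Serpin genes to 0.68. Same-numbered arrays did not deviate together (r = 0.0391 across genes for their deviations), so the numbers were not read as pairs.

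Signs of some genes turned. Serpina1b gave -0.03 and Serpind1 0.04 under quantile normalization. Serpinb5 gave 0.07 with a pseudocount of 64, and Serpinb6c -0.08 with a pseudocount of 1. Under median centring Serpinb5 gave 0.14, Serpinb6e 0.09, Serpind1 0.09, Serpinf1 0.08 and Serpinh1 0.02. Leaving out 1 array gave ranges of -0.16 to 0.22 for Serpina1b, -3.64 to 2.49 for Serpina1f, -1.11 to 3.33 for Serpinb2, -2.40 to 2.29 for Serpinb5, -1.05 to 1.14 for Serpinb6c, -0.27 to 0.06 for Serpinb6e, -0.25 to 1.21 for Serpinb8, -1.01 to 0.81 for Serpind1, -1.20 to 0.96 for Serpinf1, -2.12 to 2.62 for Serpinf2 and -0.38 to 0.02 for Serpinh1. The causes were not tested. No other Serpin gene tested changed sign.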
